A study of Arabidopsis thaliana with 6 samples.

Results

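Chitinases are enzymes that cut chitin, the polymer of N-acetylglucosamine in fungal cell walls and insect cuticles, which plants themselves do not make. Plants carry families of chitinase genes, several of which are switched on by pathogens, wounding or other stress, and some of the encoded enzymes are counted among the pathogenesis-related proteins. The chitin fragments that such enzymes release are sensed at the plant cell surface by lysin-motif receptor kinases, which start immune signalling.

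The chitinase genes described here are the loci of a given list of 10 Arabidopsis thaliana chitinases for which the platform annotation holds a probe set naming that gene alone. There were 8 such loci, each with 1 probe set, out of 13286 genes so named and 22746 probe sets tested. They were CHI (AT2G43570), AT2G43580, AT2G43590, AT2G43610, AT2G43620, AT3G47540, AT4G01700 and AT1G02360. EP3 (AT3G54420) and CHIA (AT5G24090) had no probe set naming them alone in the annotation used and were not analysed here. The rule that picked probe sets used no array value, but the list of loci was chosen with earlier results of these data known. All 8 took part in the test, with no filter on low values.

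The series concerns AtR8, a long non-coding RNA, and its role in defence. Seedlings of the atr8 mutant were compared with wild-type (WT) seedlings, with 3 arrays of each genotype, which the series calls biological replicates. Both genotypes are of the ecotype Wassilevskija (WS). All seedlings were 10 days old, were held for 6 h in water purged of air as a hypoxic stress and were then left for 22 h on agar medium to recover. Unstressed seedlings were not analysed here, so each value below compares genotypes after the stress and says nothing of the stress itself. Whole seedlings were used, and the number of independent mutant lines behind the 3 mutant arrays is not given in the sources used here. RNA of whole seedlings mixes all tissues, so fewer cells of a type and less RNA per cell cannot be told apart.

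Values are intensities on a linear scale. They spanned 1 to 47944, and the median of each array was 192.9. The number of arrays limits the precision. Mutant replicates 2 and 3 stood apart in control probe sets. Actin read 28.9 and 19.6 times as high at its 3′ as at its 5′ end on them, 2.13 times on mutant replicate 1, and 2.17 to 2.66 times on the WT arrays. For GAPDH this ratio was 1.75 and 1.70 on them and 0.794 to 0.844 on the WT arrays. Mutant replicate 1, at 0.996, was also above that WT range. Results are therefore also given for mutant replicate 1 alone against the WT arrays. Marker genes of shoot and root both gave signal, with an intensity of at least 557 for each shoot marker and 77.3 for each root marker on every array. All 4 shoot markers measured (RCA, LHCB4.1, LHCB4.2 and PSAE-1) were at a lower intensity on every mutant array than on any WT array. This pattern was found in 2493 of the 22746 probe sets tested. The summed intensity of the 4 shoot markers was 35737 to 43234 in the mutant and 70068 to 71769 in WT. The 2 root markers measured of 3 listed, EXPA7 and EXPA18, summed to 419 to 768 in the mutant and 854 to 925 in WT. EXPA18 by itself overlapped between genotypes. It read 587, 311 and 342 on mutant arrays 1, 2 and 3, against 723, 548 and 601 in WT. None of these markers passed the test at the adjusted threshold. At an unadjusted limma p under 0.05 all 4 shoot markers were lower, and 0 of the 2 root markers passed. Of all probe sets, 14% passed that level in either direction. No marker was at the lowest value of the arrays, and the part of the markers in the chitinase values was not tested.

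The comparison of atr8 with WT asked whether chitinase transcripts stood at different levels in mutant seedlings after the stress. CHI rose 4.57-fold and AT4G01700 rose 4.12-fold, each fold being taken after 16 was added to the intensities. The other 6 chitinase genes did not pass the test, which was limma's moderated test with Benjamini-Hochberg adjustment over all probe sets at a threshold of 0.05. Of the 8 genes, 2 were thus called higher and 0 lower, while 0.712% of all probe sets were called higher and 0.207% lower. The estimates of all 8 lay above 0, as did 49.5% of all, except that AT2G43610 lay below 0 with array weights and without mutant replicate 1. They ran from 0.09 to 2.19 on the log2 scale, with a median of 0.54 for the chitinases against -0.01 over all probe sets. For 6 of the 8 every mutant array exceeded every WT array, a pattern found in 11.2% of all probe sets.

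CHI is annotated as a putative chitinase and opens a run of chitinase genes on chromosome 2. Its intensity was 943, 805 and 997 on mutant arrays 1, 2 and 3, against 203, 207 and 155 on WT arrays 1, 2 and 3. The lowest mutant value was thus well above the highest WT value, and the mutant arrays lay close together. The mean was 915 ± 99.2 in the mutant and 189 ± 29.0 in WT (SD, n = 3 each). The log2 difference was 2.19 ± 0.21 (SE; 95% interval 1.67 to 2.71; limma adjusted p = 0.0233), and 110 of all probe sets, 0.484%, had a larger one.

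AT4G01700, a chitinase gene on chromosome 4, had intensities of 2376, 2711 and 2887 in the mutant, against 705, 629 and 567 in WT. Here too the genotypes were far apart, with mutant replicate 1 the lowest of the mutant arrays. The means were 2658 ± 259 in the mutant and 634 ± 69.5 in WT (SD, n = 3 each). The log2 difference was 2.04 ± 0.20 (SE; 95% interval 1.56 to 2.52; limma adjusted p = 0.0233), and 0.699% of probe sets had a larger one. This gene had the smallest p of the 8 chitinases.

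The sizes of both rises hardly moved when arrays were left out, while their calls did. On mutant replicate 1 alone CHI stood 2.24 and AT4G01700 1.89 above the WT mean on the log2 scale (adjusted p = 0.263 for both by limma, with the lone mutant array taken to vary like the WT arrays). Without mutant replicate 1 both stayed past the threshold, at 2.17 (adjusted p = 0.0431) and 2.12 (adjusted p = 0.0419). Without any one of mutant replicates 2 and 3 or WT replicates 1, 2 and 3 both lost it, with limma adjusted p-values from 0.0871 to 0.135 and log2 differences from 1.97 to 2.28. Without any one of those 5 arrays limma called 0 of all probe sets, although the unadjusted p was under 0.05 for 2443 to 2594 of them.

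**Figure D1:**
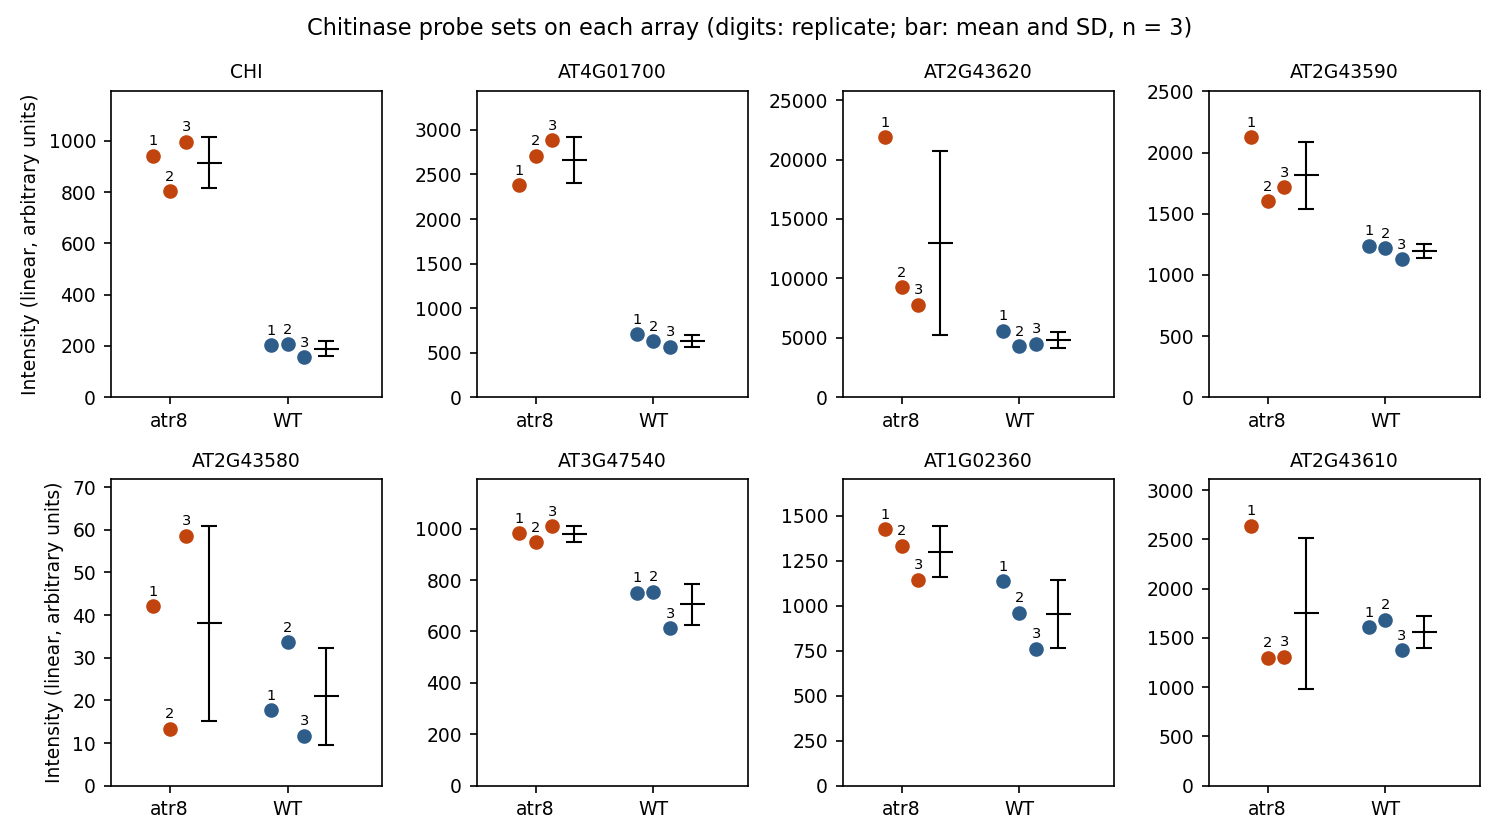
Intensity (linear scale, each panel with its own axis from 0) of the 8 chitinase probe sets on the 3 atr8 arrays (left, orange) and the 3 WT arrays (right, blue); digits give the replicate, and the bar beside each group is its mean with SD (n = 3). CHI and AT4G01700 show compact mutant groups far above WT, while for AT2G43620 and AT2G43610 mutant replicate 1, at 21876 and 2639, stands far above the other 2 mutant arrays.

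AT2G43620 closes the chromosome 2 run. Its intensity was 21876, 9240 and 7774 on mutant arrays 1, 2 and 3, against 5597, 4300 and 4513 in WT. Every mutant array lay above every WT array, but mutant replicate 1 read 2.57 times the mean of the other 2 mutant arrays. The mean was 12963 ± 7753 in the mutant and 4803 ± 696 in WT (SD, n = 3 each), a log2 difference of 1.28 ± 0.42 (SE; 95% interval 0.25 to 2.32) that did not pass (limma adjusted p = 0.27). On mutant replicate 1 alone the log2 difference was 2.19 (adjusted p = 0.263), and without it 0.83 (adjusted p = 0.157). Mutant replicate 1 had an actin 3′ to 5′ ratio of 2.13, against 28.9 and 19.6 on the other 2 mutant arrays, and the part of this difference in the spread was not tested.

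AT2G43610, a neighbour of AT2G43620 in the run, showed the same array apart. It read 2639, 1300 and 1311 on mutant arrays 1, 2 and 3, against 1607, 1686 and 1374 in WT. Mutant replicate 1 was thus above all WT arrays and mutant replicates 2 and 3 were below all of them. The log2 difference was 0.09 ± 0.33 (SE; 95% interval -0.72 to 0.90; limma adjusted p = 0.927). It was 0.76 on mutant replicate 1 alone and -0.25 without that array, and neither passed (adjusted p = 0.521 and 0.549). No direction can be given for this gene.

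AT2G43590, in the middle of the run, read 2125, 1604 and 1715 in the mutant, against 1239, 1218 and 1130 in WT. The groups did not overlap, and mutant replicate 1 was again the highest. The log2 difference was 0.59 ± 0.20 (SE; 95% interval 0.10 to 1.07; limma adjusted p = 0.282), with 0.82 on mutant replicate 1 alone and 0.47 without it. The gene passed in 1 of 15 alternatives, an intensity trend with a robust prior (adjusted p = 0.0294).

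AT2G43580, the gene after CHI, was dim, with intensities of 42.1, 13.4 and 58.6 in the mutant, against 17.6, 33.7 and 11.7 in WT. Mutant and WT arrays overlapped, and the SD was large beside the mean in both genotypes (22.9 around 38.0 in the mutant, 11.4 around 21.0 in WT). Its log2 difference of 0.49 ± 0.42 (SE; 95% interval -0.54 to 1.52; limma adjusted p = 0.644) therefore covers both directions. It was 0.20 without mutant replicate 3, 0.87 without mutant replicate 2 and 0.30 without WT replicate 3. On mutant replicate 1 alone it was 0.70. With 1 added in place of 16 it was 0.72, and with 64 added it was 0.25. The gene did not pass in any of the 14 alternatives that gave a value. No detection call stood beside the values, so whether this transcript was above background cannot be said.

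AT3G47540 and AT1G02360, on chromosomes 3 and 1, showed small differences. AT3G47540 read 982, 947 and 1010 in the mutant, against 751, 754 and 612 in WT. AT1G02360 read 1427, 1334 and 1145 in the mutant, against 1137, 962 and 762 in WT. In both genes each mutant array lay above each WT array, for AT1G02360 by a margin of only 1145 in the mutant to 1137 in WT. The log2 difference was 0.47 ± 0.19 for AT3G47540 (SE; 95% interval 0.01 to 0.93; limma adjusted p = 0.349) and 0.46 ± 0.23 for AT1G02360 (SE; 95% interval -0.11 to 1.02; limma adjusted p = 0.437). The values on mutant replicate 1 alone, 0.47 and 0.59, were close to these.

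At an unadjusted p under 0.05 there were 5 chitinase genes, all with higher estimates: CHI, AT4G01700, AT2G43620, AT2G43590 and AT3G47540. In all probe sets, 7.11% were higher at that level, and 14% passed it in either direction. The spread between mutant arrays set the genes apart more than the spread between WT arrays did. The SD of the mutant arrays ran from 3.23% of the mean for AT3G47540 to 60.2% for AT2G43580, with 59.8% for AT2G43620 and 44.0% for AT2G43610. In WT it was 4.84% to 19.7% for every gene but AT2G43580, which had 54.1%.

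Of the 8 genes, 5 lie in one run on chromosome 2. From CHI to AT2G43620 RefSeq (assembly TAIR10.1) lists 8 genes, of which 6 are chitinase family genes. The sixth, AT2G43600, was not on the given list. It read 170, 208 and 182 in the mutant, against 166, 289 and 252 in WT, with overlapping groups and a log2 difference of -0.28 ± 0.26 (SE; limma adjusted p = 0.666). The run therefore held estimates from -0.28 to 2.19, with CHI the only one of the 6 past the threshold.

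**Figure D2:**
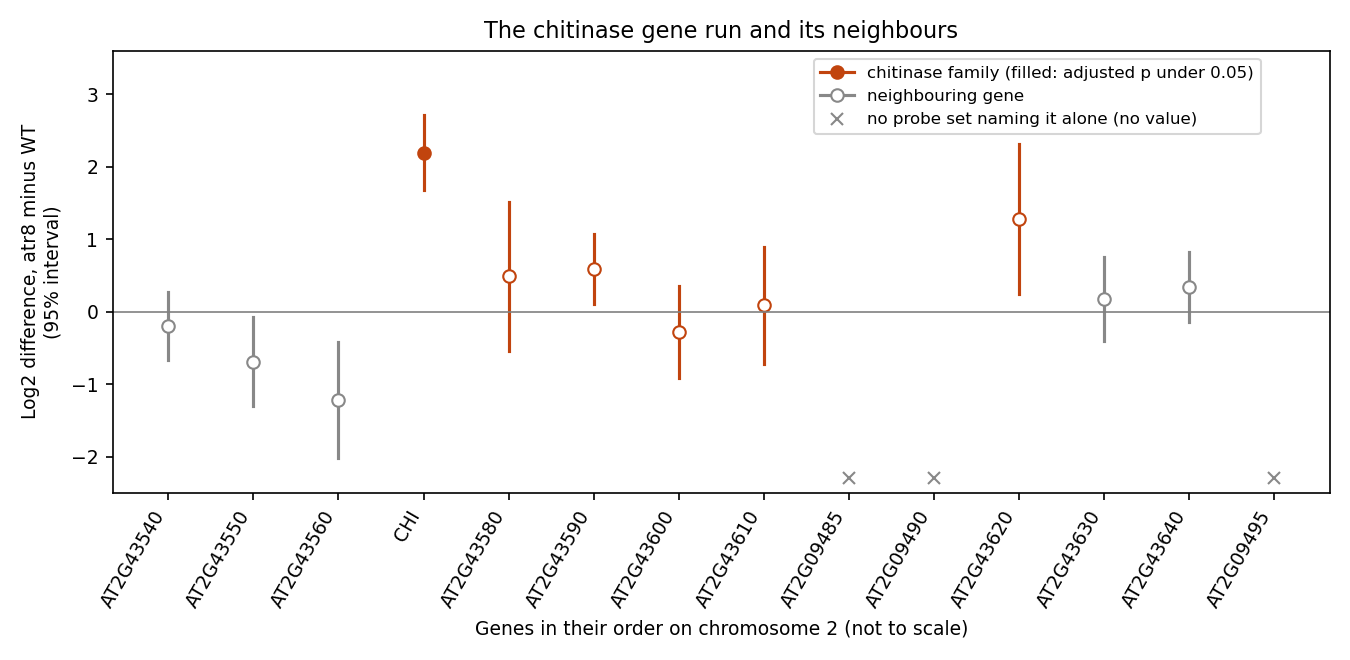
Log2 difference of intensity + 16 (atr8 minus WT, vertical axis) with its 95% interval for the genes in and around the chromosome 2 run, in gene order and not to scale. Orange points are chitinase family genes, grey points their neighbours, crosses genes with no value; CHI, at 2.19, is the only filled point, that is, the only one past the adjusted threshold.

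Chitinase family genes that were not on the given list gave 0 calls by limma among 7 measured of 14 listed, against 0.712% of all probe sets called higher and 0.207% called lower. At an unadjusted p under 0.05 there were 2 of the 7, both with higher estimates, against 7.11% of all probe sets. Their estimates ran from -0.74 to 1.38 with a median of 0.72. Both ends were imprecise, with 95% intervals of -2.53 to 1.06 for AT4G19740, the lowest, and -0.12 to 2.87 for AT1G56680, the highest. The 2 with the smallest p were AT4G19720 and ChiC, a class V chitinase. ChiC read 1156, 1017 and 1227 in the mutant, against 724, 626 and 694 in WT, without overlap (log2 difference 0.72 ± 0.19, SE; limma adjusted p = 0.187). AT4G19720 was dim, at 20.8, 45.3 and 40.7 in the mutant and 3.67, 5.09 and 6.60 in WT, all below the 16 added on the WT side, so the size of its difference depends on that number (limma adjusted p = 0.114).

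Genes that sense chitin or pass the signal on were measured in 4 of 20 cases, and 1 of the 4 was called higher, against 0.712% of all probe sets. This was WRKY53, a transcription factor of defence and senescence, with intensities of 1530, 1593 and 1663 in the mutant against 228, 225 and 149 in WT. The other 3 did not pass: WRKY22, a transcription factor of immune signalling, at a log2 difference of 1.51 ± 0.59, BIK1, a cytoplasmic kinase of immune receptor complexes, at 1.04 ± 0.22, and AT5G18610 (PBL27), a kinase downstream of the chitin receptor, at -0.27 ± 0.38 (SE, n = 3 arrays each; limma adjusted p = 0.344, 0.122 and 0.786). PBL27 read at most 13.4 in the mutant and 27.7 in WT, so it was dim in both. The chitin receptor kinase CERK1 and the related kinases LYK4 and LYK5 had no probe set naming them alone in the annotation used and were not analysed here.

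Other genes listed with the pathogenesis-related proteins were measured in 3 of 9 cases, and none passed by limma, against 0.712% of all probe sets called higher. All 3 were higher at an unadjusted p under 0.05, as were 7.11% of all probe sets. The 2 with the smallest p were the plant defensin genes PDF1.2b and PDF1.2, whose small secreted proteins act against fungi. Their log2 differences were 1.49 ± 0.29 and 0.81 ± 0.19 (SE; limma adjusted p = 0.105 and 0.153). These 2 genes are related, and whether their probe sets read separate transcripts was not tested. The 3 genes may therefore not be 3 separate readings. The third, AT4G16260, read 5284, 3030 and 3735 in the mutant, against 1380, 1896 and 2061 in WT. Its mutant replicate 1 was the highest mutant array, as for AT2G43620, and read 1.56 times the mean of the other 2.

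**Figure D3:**
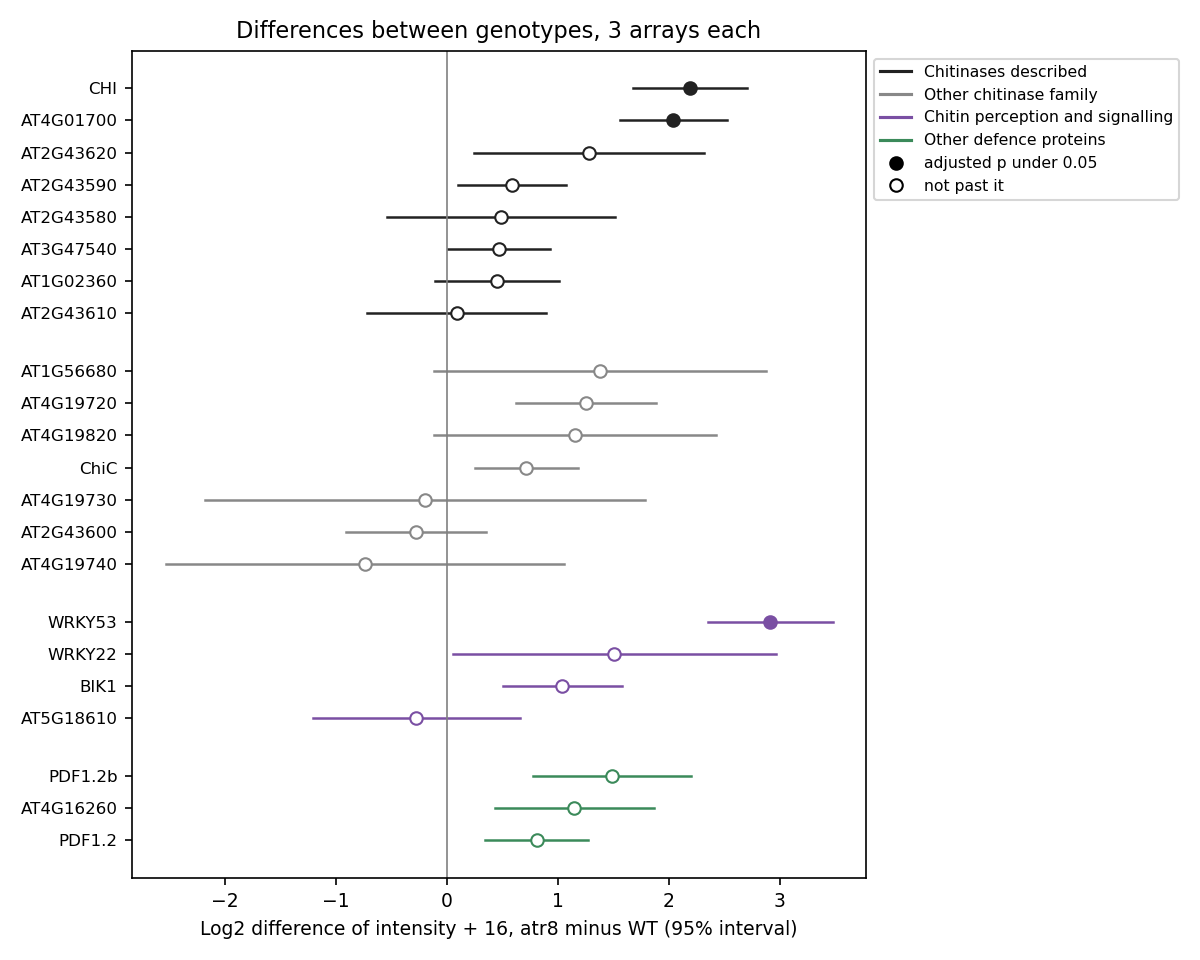
Log2 difference of intensity + 16 (atr8 minus WT, horizontal axis) with its 95% interval for the 8 chitinase genes and for the other measured genes of 3 lists, each from 3 arrays per genotype. Filled points passed the adjusted threshold of 0.05: CHI at 2.19, AT4G01700 at 2.04 and WRKY53 at 2.92.

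Among 13435 other probe sets naming 1 gene with a current locus, the 3 whose log2 values followed AT4G01700 most closely over the 6 arrays were AT2G38870, AT1G62790 and AT1G56060, with likeness (Pearson r, a description) of 0.998, 0.996 and 0.996. The 6 points fall into the 2 genotypes, so this measure mainly reflects the step between them. AT2G38870 read 10606, 12472 and 12559 in the mutant, against 2160, 2133 and 1973 in WT, a log2 difference of 2.50 ± 0.18 (SE; limma adjusted p = 0.0233). AT1G56060 stood 3.50 ± 0.24 higher (SE; limma adjusted p = 0.0233), while AT1G62790 differed by only 0.32 ± 0.17 (limma adjusted p = 0.467). AT1G56060 read 218, 262 and 289 in the mutant, against 13.9, 3.42 and 7.42 in WT. Its WT values were all below the 16 added to the intensities, so the size of its difference depends on that number.

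**Figure D4:**
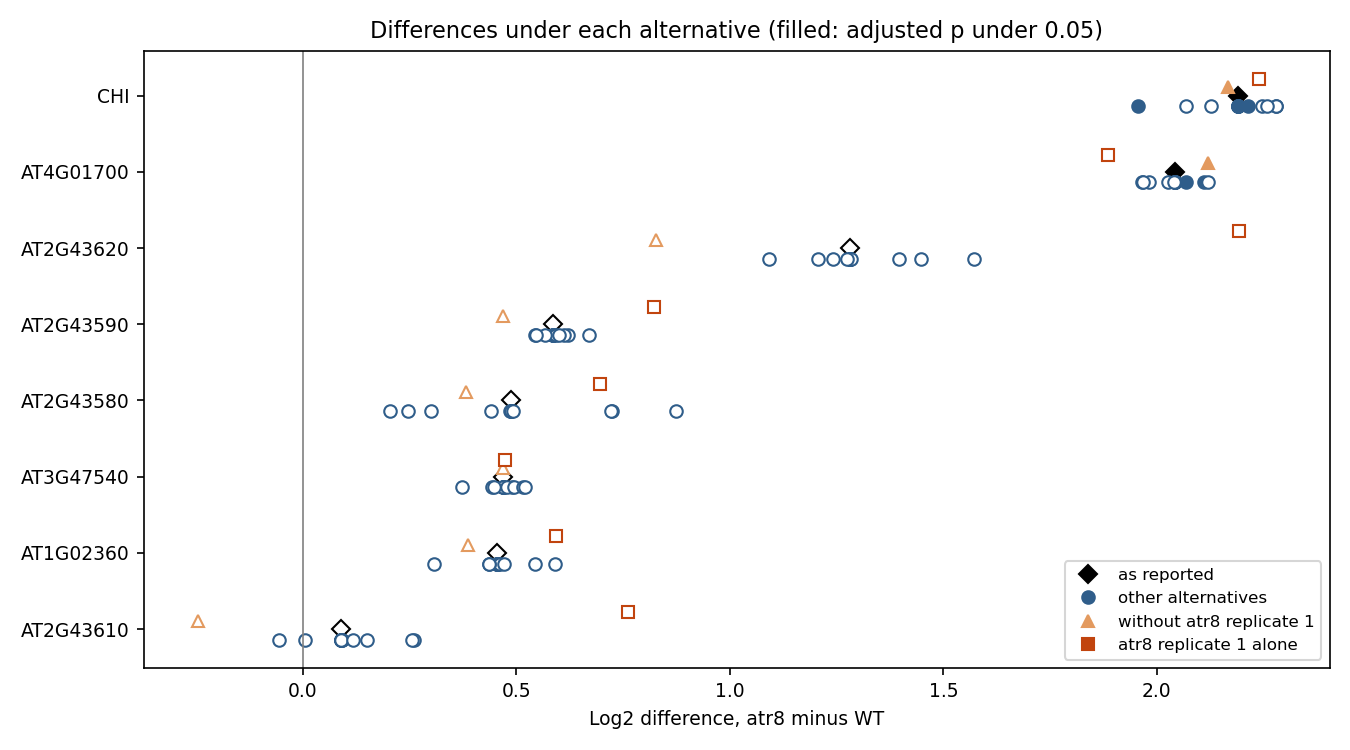
Log2 difference (atr8 minus WT, horizontal axis) of each chitinase gene as reported (black diamonds) and under each alternative; squares use mutant replicate 1 alone, triangles leave it out, and filled symbols passed the adjusted threshold of 0.05. CHI stays between 1.96 and 2.28 and AT4G01700 between 1.89 and 2.12, while AT2G43620 runs from 0.83 to 2.19 and AT2G43610 crosses 0.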

How the data were processed

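Biotin-labelled RNA of 6 seedling samples was hybridised to arrays, per the labels. The deposited values are linear intensities, and all 6 columns hold the same sorted values, so the authors' intensities had been normalized to one distribution. What software, background correction and genome build they used is not given in the sources used here. The table held 22810 probe sets, and its 64 controls were not tested. Probe sets were named through the platform annotation by gene identifier and the RefSeq table of TAIR10.1: 13513 listed 1 gene and 13436 of these matched a locus. Tests used log2(intensity + 16), by limma 3.58.1 (lmFit, eBayes; R 4.3.3), genotype as the only term and Benjamini-Hochberg adjustment over 22746 probe sets. For dim genes the 16 added makes a change look smaller. The fit was tested on simulated data.

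The members and gene lists were chosen with earlier results of these data known. Named were all measured members, from each list the genes past the threshold or else those 2 with the smallest p, and the 3 genes most like the member with the smallest p. Other genes were named after their values were seen. Deviations of same-numbered arrays of the genotypes correlated only very weakly (r = 0.0141, 0.0115 and 0.0045). Each of the 6 arrays still deviated most like the array of its own number. Alternatives were a replicate block, arrays centred on their medians, a further quantile normalization, array weights, a robust prior with an intensity trend, 1 or 64 added, the dimmest 30% of probe sets removed, each array left out, and mutant replicate 1 alone. No sequences were at hand for these genes, so none is shown.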

Additional observations from a re-analysis of the deposited data

Results flagged for a closer look

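Controls outside the comparison differed between arrays. The 3′ to 5′ signal ratio of actin was 28.9 and 19.6 on mutant replicates 2 and 3, above the WT range of 2.17 to 2.66, and that of GAPDH was 1.75 and 1.70, above 0.794 to 0.844 in WT. On mutant replicate 1, where AT2G43620 and AT2G43610 were highest, these ratios were 2.13 and 0.996, of which that of GAPDH was also above the WT range.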

How the results depend on the processing

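Of 119 values of the 8 chitinase genes under the alternatives, 102 kept their direction and their side of the threshold, and 14 of CHI and AT4G01700 kept their direction but lost the threshold, while 1 of AT2G43590 gained it. The log2 difference of AT2G43610 turned to -0.057 with array weights and to -0.25 without mutant replicate 1, and ran from -0.25 to 0.26 with each array left out. Chitinase genes called numbered 2, and 0 with the replicate number as a block (CHI and AT4G01700 at adjusted p = 0.237 by limma), 0 with mutant replicate 1 alone, and 0 to 2 with each array left out. CHI and AT4G01700 passed in 8 of 15 alternatives each, with adjusted p from 2.02e-07 and 2.21e-09 to 0.263. The numbers are not known to pair the arrays, though each of the 6 arrays deviated most like the array of its own number in the other genotype. All probe sets called numbered 209 (162 higher, 47 lower), 371 without the dimmest 30%, 1459 (813 higher, 646 lower) with a robust prior and an intensity trend, 99 with 1 added, 336 with 64 added, 0 with the replicate block (2769 at an unadjusted p under 0.05), 0 with mutant replicate 1 alone (2194 at an unadjusted p under 0.05), and 0 to 314 with each array left out. The median over the chitinase genes was 0.79 with mutant replicate 1 alone, against 0.54 over all arrays. The cause of these changes was not tested. AT2G43580 was among the dimmest 30% and had no value there. Each chitinase gene had 1 probe set, so averaging probe sets of a gene would leave every value as it is.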

Other observations

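The genes beside the chromosome 2 chitinase run, taken by position after the values of the run were seen, did not pass the test. AT2G43560, directly before CHI, had an intensity of 802 ± 333 in the mutant and 1789 ± 32.8 in WT (SD, n = 3 each), a log2 difference of -1.22 ± 0.33 (SE; limma adjusted p = 0.194), opposite in sign to that of CHI. AT2G43550, before it, stood at -0.69 ± 0.25 (limma adjusted p = 0.31) and AT2G43540 at -0.20 ± 0.19 (limma adjusted p = 0.678). On the other side, AT2G43630 and AT2G43640 stood at 0.17 ± 0.24 and 0.34 ± 0.19 (SE; limma adjusted p = 0.781 and 0.488).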
